A study of Oryza sativa with 32 samples.

Results

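SUT1 is the rice sucrose transporter gene annotated as LOC4331775. It was found as the gene whose symbol or synonym, without a leading Os, is SUT1, and 1 of the 57194 probe sets of the array, leaving out controls, belonged to it. It is described here over all 32 arrays, and the gene lies on chromosome 3 in the rice gene table. The gene was chosen because its intensity stood higher in transgenic roots than in wild type roots, so every SUT1 value that sets wild type roots against another group is a description and carries no test. The SEs and intervals of such values take no account of the choice. The shoot arrays and the differences among the lines, which the choice did not use, were tested.

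Biotin-labelled total RNA of Nipponbare rice roots and shoots was hybridised to the arrays, which form 8 groups with 4 biological replicates per group. These comprised AGR1/7, AGR1/8, AGR3/8 and wild type (WT) in either tissue. AGR1/7, AGR1/8 and AGR3/8 are independent lines that carry OsANT1:HvAlaAT, a barley alanine aminotransferase driven by the promoter of the rice gene OsANT1, which the labels call root-specific. Each line is a single transgenic line, and the WT plants do not carry the construct. The labels do not say whether a replicate was 1 plant or several. All plants, WT included, grew in hydroponics with 5 mM ammonium as the nitrogen source at 28 °C, 70% relative humidity, a 14 h day and a 10 h night under 750 µE of light. Tissue was taken at mid-day at maximum tillering. The barley transgene was not analysed here.

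Sucrose is the main form in which rice moves carbon from leaves to roots, stems and grains. Transporters of the SUT family carry sucrose across a membrane together with a proton, and SUT1 is best known in rice for moving sucrose into phloem cells and for retrieving sucrose that leaks out along the route. SWEET proteins let sugars pass down their gradient, and in the receiving tissue sucrose is split by sucrose synthases or invertases before hexokinases phosphorylate the resulting hexoses. Alanine aminotransferase interconverts pyruvate and glutamate with alanine and 2-oxoglutarate, at a meeting point of carbon and nitrogen metabolism.

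The 32 arrays had been brought to 1 scale, and the median intensity was between 14.5 and 17.4 in roots and between 14.1 and 17.8 in shoots. The root array of WT replicate 1 stood apart: its mean correlation with the other arrays of its group was 0.937, against a next lowest value of 0.961 and a median of 0.978 among root arrays. Most results that rest on it are given with and without it, and the correlations only with it. Labelled tissues had their defining markers. All 15 photosynthesis and chlorophyll probe sets tested were lower in WT roots than in WT shoots by limma at an adjusted p under 0.05, a comparison in which 59.2% of all probe sets tested were called, 31.9% higher and 27.3% lower in roots. Of 8 root marker probe sets, 5 were higher and 1 was lower in WT roots.

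SUT1 was brighter in the roots of every transgenic line than in WT roots. In AGR1/7 roots its intensity was 74.2, 41.4, 43.6 and 40.6 in replicates 1 to 4. In AGR1/8 roots it was 78.7, 57.3, 74.8 and 80.2, and in AGR3/8 roots it was 49.7, 94.0, 99.8 and 61.5. In WT roots it was 19.2, 13.1, 27.9 and 17.7. The transgenic and WT root arrays did not overlap: the dimmest transgenic array, at 40.6, was 12.7 units above the brightest WT array, at 27.9. Over all probe sets tested, 1.16% had all 12 transgenic root arrays above all 4 WT root arrays; nothing is read from this for SUT1, which was chosen on these arrays.

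The group means in roots were 50.0 ± 16.2 in AGR1/7, 72.8 ± 10.5 in AGR1/8 and 76.2 ± 24.4 in AGR3/8, against 19.5 ± 6.19 in WT (SD, n = 4 each). As ratios of linear means, which are approximate because WT roots lie near the median intensity of the arrays, AGR1/7 was 2.56 times WT, AGR1/8 was 3.74 times WT and AGR3/8 was 3.92 times WT. On the scale used for tests, log2(intensity + 16), the mean of the 3 lines was 1.19 ± 0.16 above WT (SE, 95% interval 0.85 to 1.53), which is 2.28-fold on that scale. The single lines were 0.88 ± 0.20 above WT in AGR1/7, 1.33 ± 0.20 in AGR1/8 and 1.35 ± 0.20 in AGR3/8. With 1 array left out, AGR1/7 was 0.72 to 0.99 above WT, lowest without its replicate 1, the brightest AGR1/7 array. That array had a mean correlation of 0.961 with its group, the next lowest among root arrays after WT replicate 1. The leave-out ranges were 1.24 to 1.44 for AGR1/8 and 1.23 to 1.505 for AGR3/8. The added constant of 16 shrinks the change of a probe set whose WT intensity is itself near 16, and the linear ratio of 3.41 for the mean of the lines is therefore larger. Of 38130 probe sets tested in roots, 65 had a larger rise, and 5.32% were called by limma in either direction. Nothing is read from this rank, because SUT1 was chosen on the same contrast. Without the root array of WT replicate 1 the difference was still 1.19. In roots and shoots alike, a different number of cells that hold this transcript and a different amount of it in each cell cannot be told apart.

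**Figure D1:**
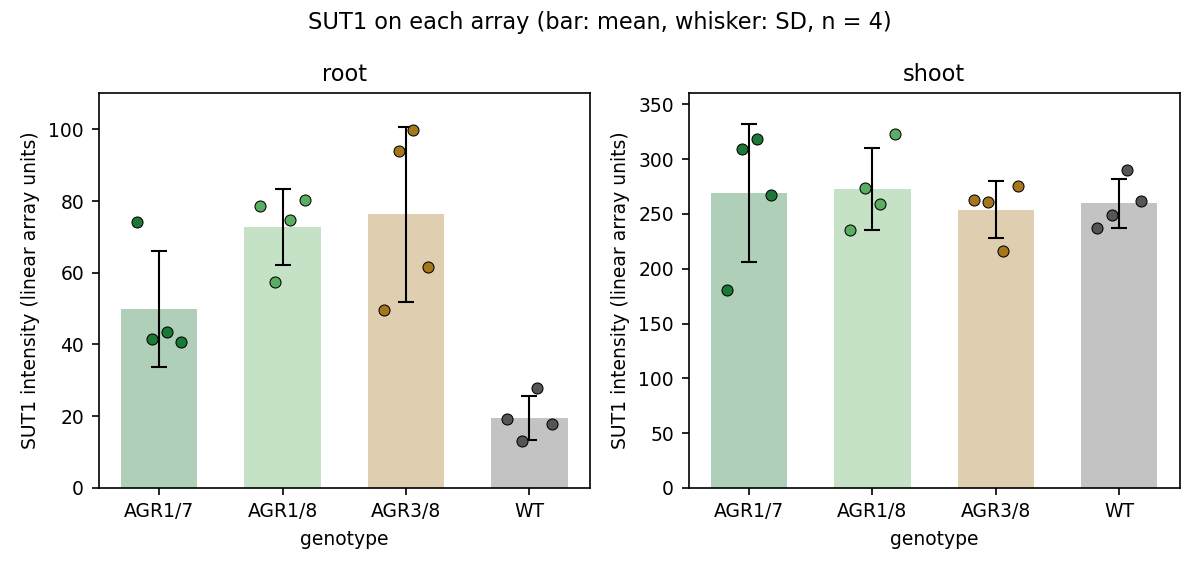
SUT1 intensity on each of the 32 arrays, on a linear scale that starts at 0 and differs between the root panel and the shoot panel. Points are arrays, bars are group means and whiskers are SDs over 4 replicates. All 12 transgenic root arrays lie between 40.6 and 99.8, above the 4 WT root arrays, whereas the shoot groups overlap between 181.0 and 323.3.

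In shoots, which the choice of the gene did not use, no difference between the transgenic lines and WT was detected. SUT1 had an intensity of 181.0, 309.2, 318.6 and 267.2 in AGR1/7 shoots. It had 235.1, 274.0, 258.8 and 323.3 in AGR1/8 shoots, and 263.2, 260.5, 215.9 and 275.2 in AGR3/8 shoots. WT shoots had 237.5, 248.9, 290.0 and 262.2. Each line had arrays on both sides of the WT mean, and of 12 transgenic shoot arrays 8 were above the WT mean and 3 above the brightest WT array. The means were 269.0 ± 62.8 in AGR1/7, 272.8 ± 37.3 in AGR1/8 and 253.7 ± 26.0 in AGR3/8, against 259.6 ± 22.6 in WT (SD, n = 4 each).

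The mean of the 3 lines minus WT in shoots was 0.02 ± 0.11 log2 (limma, adjusted p = 0.973), in a comparison where 1.57% of all probe sets tested were called. Its 95% interval ran from -0.22 to 0.26, or from 0.857-fold to 1.19-fold on the log2(intensity + 16) scale, so a change in shoots of the size described in roots lies outside it. The single lines differed from WT shoots by 0.02 ± 0.14 in AGR1/7 (limma, adjusted p = 0.975, 1.6% of probe sets called), by 0.06 ± 0.14 in AGR1/8 (limma, adjusted p = 0.909, 1.82% called) and by -0.03 ± 0.14 in AGR3/8 (limma, adjusted p = 0.949, 0.868% called). The lines' shoots were not shown to differ among themselves (limma F test, adjusted p = 0.914, with 2.26% of probe sets called). The root difference minus the shoot difference was 1.17 ± 0.20 log2 (95% interval 0.75 to 1.59). It is a description, because it holds the root contrast that chose the gene, and 1.95% of all probe sets were called in that contrast.

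SUT1 was brighter in shoots than in roots of WT plants, as of every line. Its 4 WT root arrays lay between 13.1 and 27.9, and its 4 WT shoot arrays lay between 237.5 and 290.0. WT roots minus WT shoots was -2.97 ± 0.18 log2 with a 95% interval of -3.33 to -2.61. It is given as a description, because the WT root arrays entered the contrast that chose the gene. WT root values lie near the median intensity of the arrays, and the table holds no detection calls, so linear ratios with WT roots are approximate. On linear means the root level was 7.50% of the shoot level in WT. It was 18.6% in AGR1/7, 26.7% in AGR1/8 and 30.1% in AGR3/8. The root minus shoot difference was -2.11 in AGR1/7, -1.70 in AGR1/8 and -1.58 in AGR3/8, each with an SE of 0.18. No root array of any genotype reached a shoot array, since the brightest root array, in AGR3/8, was at 99.8 and the dimmest shoot array, in AGR1/7, was at 181.0.

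In order of mean intensity the groups ran from AGR1/8 shoots through AGR1/7 shoots, WT shoots and AGR3/8 shoots to AGR3/8 roots, AGR1/8 roots, AGR1/7 roots and WT roots. Neighbours among the 4 shoot groups were not shown to differ. Among the transgenic roots, the order AGR3/8, AGR1/8, AGR1/7 was not settled either: the test over the 3 lines gave an adjusted p of 0.309 (limma F test), in a comparison where 2.99% of probe sets were called. AGR1/8 minus AGR1/7 was 0.45 ± 0.20 log2 with a 95% interval of 0.03 to 0.87 (limma, adjusted p = 0.309, 2.44% of probe sets called). AGR3/8 minus AGR1/7 was 0.47 ± 0.20 with an interval of 0.05 to 0.89 (limma, adjusted p = 0.347, 0.383% called). AGR3/8 minus AGR1/8 was 0.02 ± 0.20 with an interval of -0.40 to 0.44 (limma, adjusted p = 0.977, 2.16% called). Replicate 1 of AGR1/7 sat among the arrays of the other lines, and the remaining 3 arrays of AGR1/7 were below every array of AGR1/8 and AGR3/8. Without that replicate the adjusted p of the test over the lines was 0.128.

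Signs of RNA quality differed between root groups. The GAPDH control, whose probe sets for the 3′ end and the 5′ end of the transcript differ more in degraded RNA or incomplete labelling, had a 3′ over 5′ ratio of 2.43 to 4.80 in AGR1/7 roots and 2.54 to 4.68 in AGR3/8 roots. It was 6.76 to 57.0 in AGR1/8 roots, against 4.84 to 18.3 in WT roots. In this ratio every AGR1/7 and AGR3/8 array was thus below every WT array, and AGR1/8 reached above WT. For SUT1, the mean of AGR1/7 and AGR3/8 alone was 1.12 log2 above WT. The part of RNA quality in the SUT1 values was not tested. The actin control ratio overlapped in all root groups, at 4.75 to 5.99 for AGR1/7, 5.22 to 6.13 for AGR1/8, and from 4.41 up to 5.54 for AGR3/8, against 4.99 to 5.58 in WT.

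**Figure D2:**
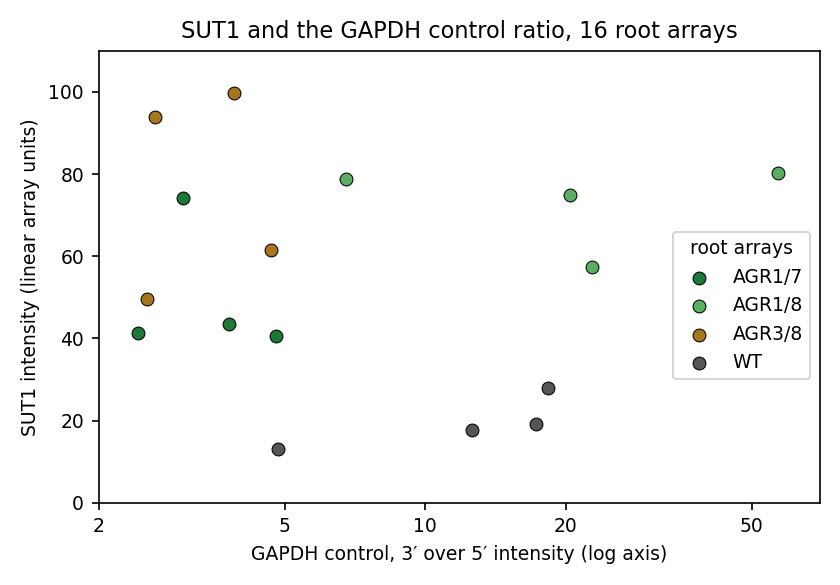
SUT1 intensity on the 16 root arrays (linear axis) against the 3′ over 5′ intensity ratio of the GAPDH control (log axis). Each point is 1 array, coloured by genotype. The ratio is under 5 on all arrays of AGR1/7 and AGR3/8 and on WT replicate 2, at 4.84. It reaches 57.0 in AGR1/8 and 18.3 in WT, so no WT array lies at the highest ratios.

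Markers of other cells were set beside the root values. Photosynthesis and chlorophyll markers, which shoot tissue would bring into a root sample, summed over 17 probe sets to between 696.5 and 780.3 in AGR1/7 roots, 878.9 and 1112.8 in AGR1/8 roots and 828.7 and 1254.3 in AGR3/8 roots, against 854.9 and 1093.6 in WT roots. Of the 17, between 8 and 10 had a mean under 16 in each root group. None of the 10 tested in roots was called by limma, beside 5.32% of all probe sets, and 1 had an unadjusted p under 0.05. The same sum was between 42610.7 and 81692 in transgenic shoots, against 38902.4 to 44831.7 in WT shoots, where 4 of 16 probe sets were called higher in the transgenic lines, beside 0.913% of all probe sets.

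The phloem list comprised RPP16 and RPP13-1, which encode proteins of rice phloem sap, and FTIP1, which helps move the flowering signal into the phloem stream. It had 4 probe sets in roots. None was called between the lines and WT (limma, with 1 at an unadjusted p under 0.05), where 5.32% of all probe sets were called. Their median difference was 0.15 log2, beside 0.03 over all probe sets. Their summed intensity lay between 4936.1 and 7400.8 in AGR1/7, between 4854.9 and 5495.4 in AGR1/8, and between 5174.7 and 5657.1 in AGR3/8. In WT it was 4511.1 to 7308.8, where replicate 1 held the highest sum. Without that array the WT sums were 4511.1 to 4964.9, below every AGR3/8 sum but overlapping AGR1/7 and AGR1/8. The median difference was then 0.16 and none was called. With all arrays, the brighter RPP13-1 probe set was at 0.26 ± 0.08 (limma, adjusted p = 0.0724), with 12 transgenic arrays above the WT mean. RPP16 was at -0.68 (adjusted p = 0.429). In shoots 1 of the 4 was called, beside 1.57% of all probe sets. It was RPP16, at -0.93 ± 0.21 (limma, adjusted p = 0.033), with 0 of 12 transgenic arrays above the WT mean. That call was lost in 10 of 24 settings. RPP16 averaged 122.4 in AGR1/7, 120.4 in AGR1/8 and 116.4 in AGR3/8 shoots, against 269.8 ± 174.1 in WT, and without WT replicate 1 it was at -0.56 and not called (adjusted p = 0.0824). The list summed to between 6494.2 and 13308.7 in transgenic shoots, with the highest sums in AGR3/8, against 6359.2 to 6796.1 in WT shoots.

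The secondary wall cellulose synthases CESA4, CESA7 and CESA9 and the COBRA-like gene BC1, markers of xylem and fibres, had sums over 5 probe sets between 215.1 and 585.7 in AGR1/7, between 344.7 and 928.4 in AGR1/8, and between 317.7 and 452.2 in AGR3/8, against 577.5 to 2293.5 in WT roots. Their median difference was -0.995 log2, and all 5 had an unadjusted p under 0.05. A probe set of CESA4 was called lower (-1.04 ± 0.29, limma, adjusted p = 0.046), which is 1 of 5. Over all probe sets 5.32% were called, 2.04% lower. The call was lost in 15 of 24 settings, and the other CESA4 probe set was not called (-1.10, limma, adjusted p = 0.0859). The highest WT sum was that of replicate 1. Without it the WT sums were 577.5 to 933.1, the median difference was -0.63, 2 of the 5 had an unadjusted p under 0.05 and none was called by limma, with the CESA4 probe set at -0.67 (adjusted p = 0.193). A part of tissue composition in the SUT1 values was not tested.

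The other sucrose transporters of the array were set beside SUT1, which was chosen for its rise in transgenic roots. SUT2, which in rice sits in the vacuolar membrane, had 2 probe sets, and SUT4 and SUT5 had 1 each. The gene table also gives SUT2 as a synonym of SUT4, so these names follow the current symbols. Of these 4 probe sets none was called between the lines and WT in roots by limma, beside 5.32% of all probe sets. The count therefore says nothing particular of these genes, and 1 had an unadjusted p under 0.05. Their root differences lay between -0.43 and 0.05 log2.

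The brighter SUT2 probe set had root means of 477.5 ± 32.9 in AGR1/7, 454.2 ± 36.8 in AGR1/8 and 457.6 ± 47.1 in AGR3/8, against 497.1 ± 50.1 in WT. The difference was -0.10 ± 0.08 log2 in roots (limma, adjusted p = 0.502, 95% interval -0.27 to 0.07) and -0.06 ± 0.10 in shoots (adjusted p = 0.862). It was lower in WT roots than in WT shoots, at -0.88 ± 0.11 (limma, adjusted p = 6.16e-08). Its shoot level was 912.7 in AGR1/7, 882.0 in AGR1/8 and 881.1 in AGR3/8, against 927.2 in WT. The dimmer SUT2 probe set had group means from 13.6 to 21.9 and gave a WT root minus shoot difference of 0.02 (limma, adjusted p = 0.943), so the SUT2 probe sets disagreed on the tissue difference.

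SUT4 had lower root means in all 3 lines than in WT, a difference that did not pass the test and whose size rested on 1 WT array. Its root intensities were between 168.5 and 209.8 in AGR1/7, between 173.4 and 203.6 in AGR1/8, and between 182.1 and 216.3 in AGR3/8, against 207.8 to 417.1 in WT, where replicate 1 held the 417.1 and the next array was at 239.4. All 12 transgenic arrays were below the WT mean of 272.5. The difference was -0.43 ± 0.13 log2 (limma, adjusted p = 0.0646), and without WT replicate 1 it was -0.21 (adjusted p = 0.197). Without WT replicate 2 or WT replicate 4 it was called (adjusted p = 0.0487 and 0.0429). In shoots it was -0.29 ± 0.13 (limma, adjusted p = 0.328), and -0.10 without the shoot array of WT replicate 1 (adjusted p = 0.834). WT roots minus WT shoots was 0.19 ± 0.16 (limma, adjusted p = 0.328), which without the shoot array of WT replicate 1 was 0.38 (adjusted p = 0.0334) and without the root array of WT replicate 1 was -0.02.

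SUT5 was dim in both tissues. Root means were 12.9 in AGR1/7, 11.3 in AGR1/8 and 15.2 in AGR3/8, against 12.1 in WT, with a difference of 0.05 ± 0.15 log2 (limma, adjusted p = 0.895). In shoots its means lay between 3.83 and 9.18 in the lines, against 4.03 in WT, and it fell among the dim probe sets left untested there. WT roots were 0.49 ± 0.19 above WT shoots (limma, adjusted p = 0.0289), a call that was lost without shoot WT replicate 1 (adjusted p = 0.0697), shoot WT replicate 3 (0.0787) or root WT replicate 4 (0.121). SUT1 and the other SUT probe sets were compared on the difference between the root and shoot effects as well. For SUT2 this was -0.04 and 0.07 for its probe sets, for SUT4 -0.14 ± 0.19 and for SUT5 -0.07, none of which was called (limma, adjusted p between 0.764 and 0.927). Over all probe sets 1.95% were called in that contrast.

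**Figure D3:**
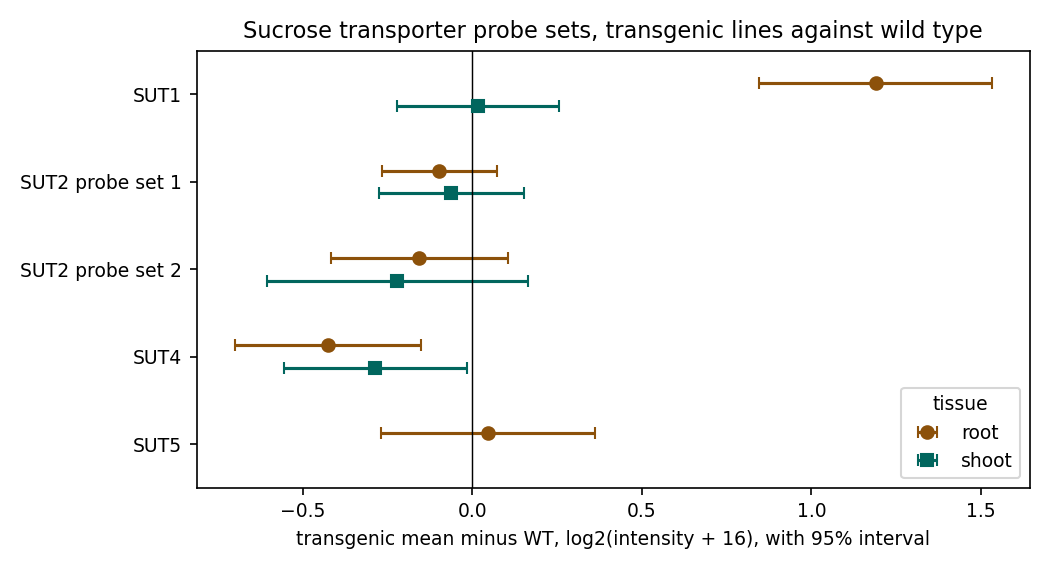
Difference between the mean of the 3 transgenic lines and WT on the log2(intensity + 16) scale for each SUT probe set, in roots (circles) and shoots (squares), with 95% intervals. SUT1 in roots is at 1.19 by choice of the gene; SUT1 in shoots is at 0.02, and SUT5 has no shoot point because it was too dim to test there.

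Across the sugar genes beside SUT1, the called differences in roots went both ways and lay between -0.58 and 0.47 log2. The lists of transporters and enzymes held 51 genes, of which 43 had a probe set, and 44 of their 50 probe sets were bright enough to test in roots. Of these, 5 were called higher and 3 lower in the transgenic lines (limma), 18.2% against 5.32% of all probe sets (3.28% higher and 2.04% lower), with a median difference of -0.06 beside 0.03 over all. Without the root array of WT replicate 1 the count called was 1 of 44, or 2.27%, beside 2.05% of all probe sets in the same fit. In shoots 0 of 41 were called by limma (8 had an unadjusted p under 0.05, and 1 was called when arrays were weighted), with a median difference of -0.05 against -0.00 over all. Between WT tissues, 19 of 44 were higher and 18 lower in WT roots than in WT shoots (limma), beside 31.9% higher and 27.3% lower over all probe sets.

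SWEET uniporters accounted for the 3 lower calls among 12 probe sets tested, with a median difference of -0.40. SWEET4, a hexose transporter needed for rice grain filling, averaged 305.8 ± 29.0 in AGR1/7, 271.4 ± 58.1 in AGR1/8 and 281.1 ± 12.5 in AGR3/8, against 439.1 ± 100.1 in WT (SD, n = 4 each). Its difference was -0.58 ± 0.13 log2 (limma, adjusted p = 0.0183), with 0 of 12 transgenic arrays above the WT mean. SWEET2A differed by -0.29 ± 0.08 (limma, adjusted p = 0.0378). SWEET2B differed by -0.54 ± 0.14 on 1 of its probe sets (limma, adjusted p = 0.0394), and by -0.50 on the other, which was not called (adjusted p = 0.0736). The called one was dim, with means of 22.4 in AGR1/7, 21.3 in AGR1/8 and 19.3 in AGR3/8, against 38.6 in WT. The other was dimmer still in each root group, so both lie near the added constant of 16 in the lines. Over 24 settings the call was lost in 12 for SWEET2A, in 15 for SWEET2B and in 1 for SWEET4. Without WT replicate 1, SWEET4 was no longer called (adjusted p = 0.0666), nor were SWEET2A and SWEET2B, and the calls of SUS2, SUS4 and CIN4, 3 genes of sucrose cleavage, were lost as well.

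Enzymes that split sucrose or phosphorylate hexoses gave the 5 higher calls. Of 7 sucrose synthase probe sets, SUS2 was higher by 0.22 ± 0.06 log2 (limma, adjusted p = 0.045) and SUS4 by 0.36 ± 0.10 (adjusted p = 0.0474), while the median of the list was -0.23. These calls were lost in 18 of 24 settings for SUS2 and 19 of 24 for SUS4, and SUS2 was at 0.068 (adjusted p = 0.465) with quantile normalization. SUS2 averaged 6925 in AGR1/7, 6201 in AGR1/8 and 6840 in AGR3/8, against 5708 in WT, and all 12 transgenic arrays were above the WT mean. Of 8 invertase probe sets, CIN4, a cell wall invertase gene, was higher by 0.42 ± 0.12 (limma, adjusted p = 0.0452), a call lost in 16 of 24 settings. The CIN4 means were 140.0 in AGR1/7, 181.7 in AGR1/8 and 185.4 in AGR3/8, against 124.4 in WT.

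Of 8 hexokinase probe sets, 2 were higher. Some hexokinase names are shared by several genes in the gene table, so a call holds for that gene and not for the name. The gene listed as HXK4 alone was at -0.14 (limma, adjusted p = 0.548). That listed as HXK3 and HXK8 was at -0.02 (adjusted p = 0.940), and that listed as HXK2 and HXK6 at -0.18 (adjusted p = 0.209). The gene listed as HXK4 and HXK8 differed by 0.47 ± 0.09 (limma, adjusted p = 0.00939), with means of 87.5 in AGR1/7, 142.7 in AGR1/8 and 86.8 in AGR3/8, against 69.6 in WT. The gene listed as HXK6 and HXK7 differed by 0.44 ± 0.10 (limma, adjusted p = 0.025), with means of 291.1 in AGR1/7, 236.4 in AGR1/8 and 248.3 in AGR3/8, against 184.3 in WT. Without WT replicate 1 the first of these was still called (adjusted p = 0.0129) and the second was not (adjusted p = 0.0772). None of 4 sucrose phosphate synthase and phosphatase probe sets was called by limma (1 had an unadjusted p under 0.05), nor was the 1 monosaccharide transporter probe set tested (unadjusted p above 0.05).

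**Figure D4:**
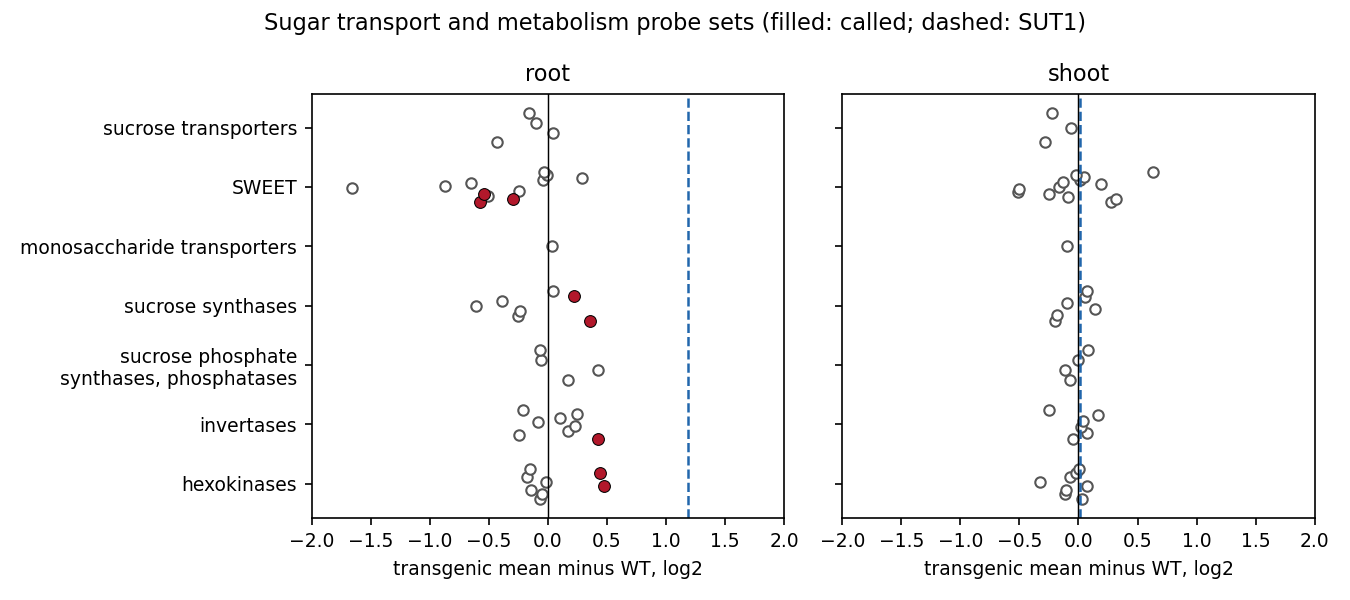
Difference between the mean of the 3 transgenic lines and WT for each tested probe set of the sugar lists, on the log2(intensity + 16) scale, in roots and shoots, with SUT1 marked by the dashed line and left out of the sucrose transporter row. Filled points passed an adjusted p of 0.05: 8 of 44 in roots, of which 5 were higher and 3 lower, and 0 of 41 in shoots.

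The named probe sets whose profile was most like that of SUT1 over the 32 arrays were those of ZHD10 (r = 0.953), CIPK7 (0.950), TULP11 (0.950), OsHsp17.9B (0.949) and EGY1 (0.949). They were picked out of 2910 tested probe sets that matched 1 gene with a descriptive name. These correlations describe arrays that share the tissue difference. ZHD10, a zinc finger homeodomain gene, had root means of 42.3 in AGR1/7, 44.7 in AGR1/8 and 40.5 in AGR3/8, against 18.1 in WT. Its shoot means were 157.6 in AGR1/7, 169.5 in AGR1/8 and 173.2 in AGR3/8, against 156.6 in WT, so that its lowest group was WT roots. CIPK7, a calcium sensor kinase gene, had root means of 318.8 in AGR1/7, 392.5 in AGR1/8 and 373.3 in AGR3/8, against 230.6 in WT. Its shoot means were 1536 in AGR1/7, 1488 in AGR1/8 and 1565 in AGR3/8, against 1306 in WT.

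Over the 16 root arrays alone, where SUT1 was chosen for the difference between lines and WT, the closest of 2895 were PYL11 (r = 0.822), IPK1 (0.786), PIP5K (0.786), MFT1 (0.785) and MT-2 (0.785). PYL11, of the abscisic acid receptor family, had root means of 928.2 in AGR1/7, 950.0 in AGR1/8 and 1021 in AGR3/8, against 714.9 in WT. MT-2, a metallothionein gene, had root means of 3155 in AGR1/7, 4305 in AGR1/8 and 3470 in AGR3/8, against 1920 in WT. Among the SUT probe sets, the correlation with SUT1 over the 16 root arrays was -0.45 and -0.16 for SUT2, -0.50 for SUT4 and -0.02 for SUT5. Over the 16 shoot arrays it was -0.52 and 0.39 for SUT2, -0.38 for SUT4 and 0.06 for SUT5. Both SUT4 correlations include WT replicate 1, at 417.1 in roots and 345.9 in shoots, where the other WT arrays reached 239.4 and 205.7. They were not computed without it.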

How the data were processed

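The deposited table held 1 intensity per probe set and array, on a linear scale to 1 decimal, which the authors had scaled per array to a common trimmed mean, as the values show. For the software that summarised the probes, the sources used here give no name. RNA extraction, labelling and replicate numbers are per the labels. From these values log2(intensity + 16) was computed, the dimmest 33.3% of probe sets were left out of each fit, and group means were fitted with limma 3.58.1 in R 4.3.3 (lmFit, eBayes with trend) on the 16 arrays of a tissue, or on all 32 for contrasts between tissues, with Benjamini-Hochberg adjustment over the 38130 probe sets tested and a threshold of 0.05. The fit was tested on simulated data with independent normal noise for each probe set and no outlying arrays. In roots 40% of the changes of 0.5 log2 put in and 78% of those of 1 log2 were recovered. In shoots 34% and 72% were recovered. For arrays, their number limits the precision.

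Probe sets were named through the platform annotation and the rice gene table. Of 57194, 22436 matched 1 gene and 95 several. SUT3 was not analysed here, nor were the proton pumps, whose symbols matched no gene. Symbols that named another gene (8 list entries) were left out. The members and lists were chosen with earlier results of these data known. The WT tissue difference of SUT1, planned as a test, is given without a p. Named genes were the SUT genes, called members of the lists (up to 4 each), and the 5 named probe sets closest to SUT1 by Pearson correlation over all arrays and over root arrays. Alternatives were other constants, no filter, quantile normalization, median centring, array weights, blocks, 1 fit over both tissues and leaving out each array.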

Additional observations from a re-analysis of the deposited data

Results flagged for a closer look

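In 5 of 40 groups of 4 arrays, 1 array of a SUT probe set lay far from the other 3 by Dixon's test at the 95% level. Chance gives about 1 in 20. For SUT1 this was AGR1/7 replicate 1 in roots, at 74.2 where the other 3 were between 40.6 and 43.6. For the dimmer SUT2 probe set it was AGR3/8 replicate 2 in roots, at 25.4 where the others were between 10.6 and 11.8. SUT4 stood out in WT replicate 1 of both tissues, at 417.1 in roots (others 207.8 to 239.4) and 345.9 in shoots (others 188.9 to 205.7). SUT5 stood out in AGR1/7 replicate 3 in shoots, at 8.4 where the others were between 1.8 and 2.7.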

How the results depend on the processing

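The SUT1 difference in roots was 1.70 with a constant of 1 before the logarithm and 0.63 with 64, and 1.099 to 1.30 with 1 array left out. The root minus shoot difference was 1.69 and 0.61 under these constants, and 1.08 to 1.28 with 1 array left out. The constant sets how far dim values are compressed. The SUT1 WT root minus WT shoot difference was -3.71 to -1.96 over 39 settings. The SUT1 test among root lines was called in none of 24 settings (limma, adjusted p 0.0552 to 0.507). In shoots SUT1 was called in none of 25 (adjusted p 0.786 to 0.998), and its sign changed: -0.0051 with median centring, and -0.022 to 0.073 with 1 array left out. For the single lines in shoots the leave-out ranges ran from -0.065 to 0.19 for AGR1/7, from -0.018 to 0.13 for AGR1/8, and from -0.072 to 0.038 for AGR3/8. AGR1/7 was at -0.033 with median centring, and AGR3/8 was at 0.032 with quantile normalization. Other signs that changed were SUT5 in roots (-0.064 with array weights, -0.022 to 0.16 with 1 array left out), the dimmer SUT2 probe set for WT root minus WT shoot (-0.018 with quantile normalization, -0.050 to 0.055) and SUT4 for the same contrast (-0.020 to 0.38). SUT4 in roots was called in 1 fit over both tissues (adjusted p = 0.0396). The gene listed as HXK4 and HXK8 lost its call there (limma, adjusted p = 0.144).

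The 8 sugar calls in roots became 4 without the filter, 4 with array weights, 5 with median centring and 1 to 8 with 1 array left out, and the 0 in shoots became 1 with array weights and 0 to 1. All calls in roots (2027) became 1268 without the filter, 3881 in 1 fit over both tissues and 782 to 3022 with 1 array left out. All calls in shoots (599) became 385 without the filter, 997 with array weights and 224 to 1018. The cause was not tested. Replicate numbers were not taken to pair the arrays, because not every same-numbered pair correlated above 0.1. Deviations of same-numbered arrays correlated at -0.17 to 0.42 in roots (median 0.049, other pairs -0.019, 9 of 24 over 0.1) and -0.049 to 0.19 in shoots (1 of 24 over 0.1). As a hint from the data, 8 of 16 root arrays and 9 of 16 shoot arrays correlated best with their own number. With the replicate number as a block SUT1 in shoots was still at 0.02 (adjusted p = 0.968), and 7 sugar probe sets were called in roots, without SUS4 (adjusted p = 0.0644), and the CESA4 probe set was not (adjusted p = 0.0607). SUT5, the dimmer SUT2 probe set and WT root SUT1 lie near or below the constant of 16, which limits what small differences there can show.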

Other observations

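Genes beside SUT1 on chromosome 3, in the order of the rice gene table, were looked at in roots. Taking the nearest 10 genes with a tested probe set on each side gave 20 genes and 22 probe sets, of which 1 was higher in the transgenic lines and 0 were lower (limma), with a median difference of 0.08. Over all probe sets 3.28% were called higher and 2.04% lower, so the count says nothing particular of the neighbours. The 1 was LOC4331786, at 0.46 ± 0.12 log2 (adjusted p = 0.0364), and across settings between 0 and 5 of the neighbours were called. The nearest tested genes were Hox21, a homeobox gene, at -0.30 ± 0.17 (limma, adjusted p = 0.299), and ILI6 at -0.52 ± 0.33 (adjusted p = 0.367). Within 5 genes on each side, a window chosen after seeing the data, 0 of 11 probe sets were called.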
